A study of Mus musculus with 10 samples.

Results

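The CC chemokines followed here are 10 small secreted proteins, Ccl2, Ccl3, Ccl4, Ccl5, Ccl6, Ccl7, Ccl8, Ccl9, Ccl12 and Ccl17, chosen by name and not by any measured value. All 10 were on the array with 1 single-gene probe each, and all 10 were among the 10792 genes tested of 19749 genes named. Their mRNA was read on 10 microarrays of total RNA from microglia, the resident macrophages of the brain. The cells were sorted by flow cytometry from male mice with a labelled age of 8 to 12 weeks. Mice were C57BL/6 (WT) or Trem2-/-, which lack a lipid-sensing receptor of microglia. The labels do not give the genetic background of the Trem2-/- line, and the sources used here name no sort markers. Each genotype gave 5 arrays: a control without cuprizone, 0.2% cuprizone diet for 4 weeks or for 12 weeks, and either feeding time followed by 2 weeks of normal food (recovery). Mice fed for 12 weeks cannot have been within the labelled age when sorted, so age at sorting may differ between the feeding times. Cuprizone binds copper, and feeding it kills the oligodendrocytes that make myelin. The labels do not say how many animals went into an array, so the p-values measure only the spread between these samples, which may be technical.

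CC chemokines draw leukocytes along a gradient through G protein-coupled receptors of the Ccr family, and microglia are one of their sources when myelin is lost. They fall into types. Ccl2, Ccl7, Ccl8 and Ccl12 are monocyte chemoattractant proteins (MCP type), of which Ccl2, Ccl7 and Ccl12 act on Ccr2. Ccl3, Ccl4 and Ccl5 attract monocytes, macrophages and T cells. Ccl6 and Ccl9 are rodent ligands of Ccr1, and Ccl17 is a ligand of Ccr4 best known from dendritic cells.

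In the RefSeq gene order of assembly GRCm38.p6, 9 of the 10 genes lie on chromosome 11 in a pair of clusters. One holds Ccl2, Ccl7, Ccl11, Ccl12 and Ccl8 in that order, and the other holds Ccl5, Ccl9, Ccl6, Ccl3 and Ccl4. Ccl17 lies on chromosome 8 next to Cx3cl1. Promoters of 6 of the 10 genes matched the RefSeq table by symbol, namely Ccl3, Ccl6, Ccl8, Ccl9, Ccl12 and Ccl17. The 250 bases before the start of 4 of them are shown as neighbouring pairs that the results describe together: Ccl12 with Ccl8 (MCP type), and Ccl9 with Ccl6 (Ccr1 ligands). Each reads 5′ to 3′ along its gene, with motif matches in capitals. The positions are chr11:82101595-82101844 (plus strand) for Ccl12, chr11:82114935-82115184 (plus strand) for Ccl8, chr11:83578637-83578886 (minus strand) for Ccl9 and chr11:83593088-83593337 (minus strand) for Ccl6.
Ccl12: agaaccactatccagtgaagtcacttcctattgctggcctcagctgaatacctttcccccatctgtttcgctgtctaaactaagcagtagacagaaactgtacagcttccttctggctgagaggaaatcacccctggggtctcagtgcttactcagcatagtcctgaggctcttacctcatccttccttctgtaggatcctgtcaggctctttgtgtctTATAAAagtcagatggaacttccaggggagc
Ccl8: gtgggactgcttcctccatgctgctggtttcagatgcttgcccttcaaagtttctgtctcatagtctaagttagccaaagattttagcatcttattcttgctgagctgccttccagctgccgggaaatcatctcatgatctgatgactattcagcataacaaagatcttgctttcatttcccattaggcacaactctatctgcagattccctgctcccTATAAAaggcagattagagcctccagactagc
Ccl9: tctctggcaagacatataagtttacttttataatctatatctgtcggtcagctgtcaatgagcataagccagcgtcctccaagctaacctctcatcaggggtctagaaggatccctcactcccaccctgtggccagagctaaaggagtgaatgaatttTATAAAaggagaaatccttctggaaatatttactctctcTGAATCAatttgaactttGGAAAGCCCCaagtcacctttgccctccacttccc
Ccl6: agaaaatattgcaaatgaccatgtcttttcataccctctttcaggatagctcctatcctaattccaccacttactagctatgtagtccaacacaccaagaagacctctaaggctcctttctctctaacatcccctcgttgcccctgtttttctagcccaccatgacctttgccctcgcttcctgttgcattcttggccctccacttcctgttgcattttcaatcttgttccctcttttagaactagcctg
The search covered TATAAA on the gene's own strand and, on both strands, the NF-kB motif, the AP-1 motif TGANTCA, the IRF motif GAAANNGAA and the PU.1 motif GAGGAAGT, none of whose matches overlapped here. A TATAAA lay at base 220 of the Ccl12 window, base 219 of the Ccl8 window and base 159 of the Ccl9 window, against 7.59% of 32851 promoters with one. The Ccl9 window also held an AP-1 match at base 198 and an NF-kB match at base 216, motifs found in 6.75% and 3.9% of promoters. In the Ccl6 window none of the 5 motifs was found. An IRF match lay in the Ccl3 window (7.13% of promoters), and no PU.1 match was found in any of the 6 windows (2.44% of promoters). These matches describe letters and show no binding.

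Levels are log2 of the deposited intensity, where the median of all values in the table is 5.27 and levels near it are close to background. The arrays had median intensities of 37.6 to 39.3. Trem2 was 10.66 to 10.81 on the 5 WT arrays and 7.26 to 7.85 on the 5 Trem2-/- arrays, which left signal above the table median, and 9 of 9 measured microglia markers exceeded the table median on every array. By the submitters' sample numbers, the controls and 4-week arrays form a first run of 6 arrays and the 12-week arrays a second run of 4. The second run has no control, and feeding time cannot be told apart from run or from a difference in age at sorting. The Trem2-/- cuprizone array titled 12 weeks carries a time label of 4 weeks. It is treated as 12 weeks, and beside the results that turn on it stands the value without it or with it as 4 weeks. Differences are log2 differences ± SE from limma, adjusted over all genes tested with a threshold of 0.05. In the group model, the cuprizone and recovery groups hold 1 array of each feeding time and each control is a single array whose spread is taken from the other groups. Another fit entered the feeding time as a block, with the controls beside the 4-week arrays (called the blocked fit).

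**Figure D1:**
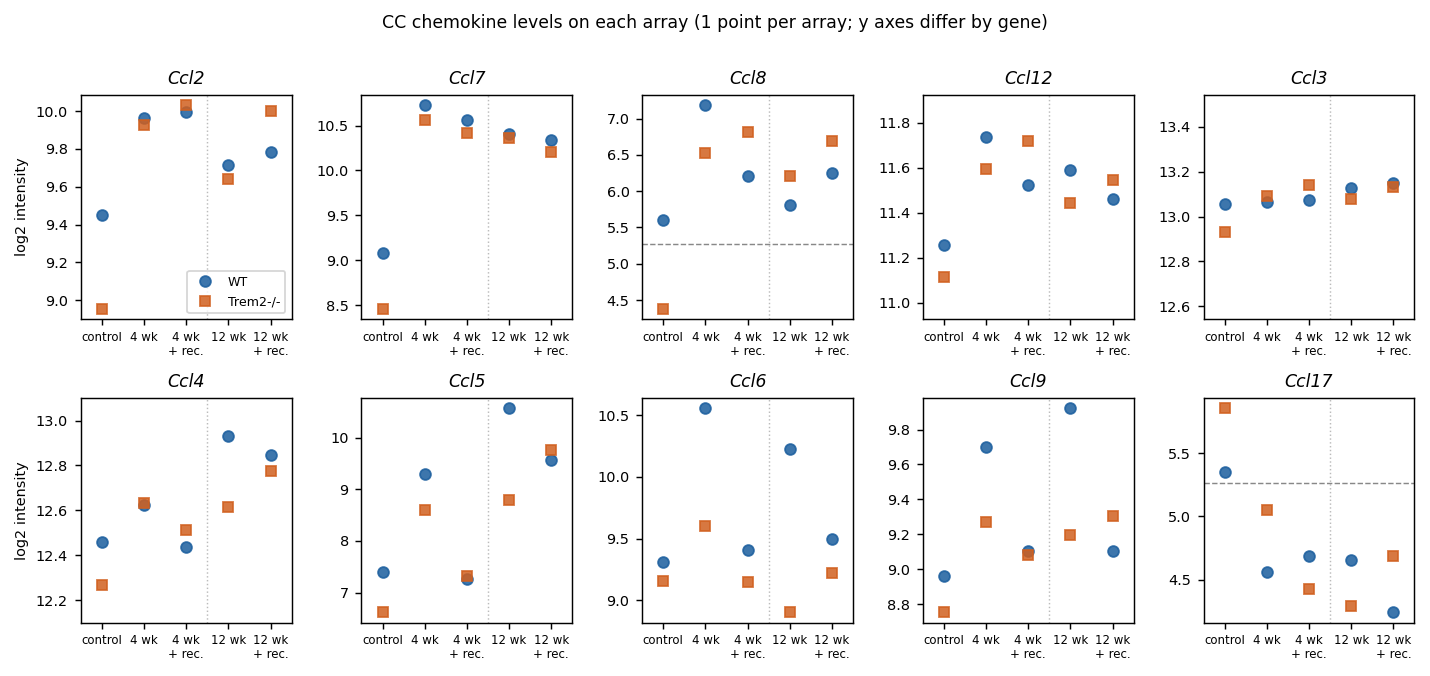
Log2 intensity (y axis, range set per gene) of each CC chemokine on each array, by diet condition (x axis). Blue circles are WT and orange squares Trem2-/-, with 1 point per array. The dotted vertical line separates the first run from the 12-week arrays and the dashed horizontal line is the table median of 5.27. Ccl7 lies at 10.20 to 10.73 on all 8 arrays of fed mice, above both controls, while Ccl6 is above 10 on the WT cuprizone arrays and at 8.90 to 9.60 on the other 8.

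The MCP-type genes Ccl2, Ccl7, Ccl8 and Ccl12 were higher on all 8 arrays of mice that had received cuprizone than on both controls, in either genotype. Across the 10 chemokines 6 had this order, the others being Ccl3 and Ccl9, against 3.83% of all genes tested. Ccl7 was 9.09 on the WT control and 8.46 on the Trem2-/- control. It was 10.73 and 10.41 on the WT cuprizone arrays (4 and 12 weeks) and 10.56 and 10.36 on the Trem2-/- cuprizone arrays. In recovery Ccl7 was 10.56 and 10.34 in WT and 10.42 and 10.20 in Trem2-/-. The fed arrays thus lie within a narrow band whatever the genotype or phase, and the widest gap is that to the controls. In these bulk samples, more cells that make a transcript and more transcript per cell cannot be told apart.

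Ccl7 on cuprizone differed from control by 1.48 ± 0.25 in WT (2.79-fold) and by 2.00 ± 0.25 in Trem2-/- (4.01-fold). Neither passed in the group model (adjusted p = 0.1 and 0.399), where 0.148% of genes passed in WT and 0% in Trem2-/-. In the blocked fit both rose, by 1.60 ± 0.19 (adjusted p = 0.00387) and 2.12 ± 0.19 (adjusted p = 0.00808), where 0.973% and 0.12% of genes passed. With the array of conflicting labels counted as 4 weeks, the adjusted p of the Trem2-/- rise was 0.0511 and that of the WT rise 0.0194. Without that array the Trem2-/- difference in the group model was 2.10 ± 0.30 (adjusted p = 1). The Trem2-/- minus WT difference in the Ccl7 response was 0.52 ± 0.35, with a 95% interval of -0.29 to 1.34 and an adjusted p of 1.

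Ccl8 was dim, and the Trem2-/- control (4.37) lay below the table median, so its differences can be compressed. The WT control was 5.61. Ccl8 reached 7.19 on the WT 4-week cuprizone array and 5.81 on the WT 12-week one, and 6.21 and 6.25 in WT recovery. In Trem2-/- it was 6.52 and 6.21 on cuprizone and 6.81 and 6.70 in recovery. The WT arrays of fed mice therefore spread from just above control to well above it, while the Trem2-/- arrays all stood clear of their control. The difference from control was 0.89 ± 0.47 on cuprizone in WT and 1.99 ± 0.47 in Trem2-/-, with adjusted p of 0.998 and 0.999. Without the array of conflicting labels the Trem2-/- difference was 2.15 ± 0.58 (adjusted p = 1). In WT the Ccl8 difference was 0.20 without the 4-week cuprizone array and 1.58 without the 12-week one.

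Ccl2, the classic monocyte attractant of the brain, was 9.45 on the WT control and 8.95 on the Trem2-/- control. On cuprizone it was 9.97 and 9.71 in WT and 9.92 and 9.64 in Trem2-/-. In recovery Ccl2 was just under 10 and 9.79 in WT and 10.03 and just over 10 in Trem2-/-. The genotypes overlapped on cuprizone, and in recovery both Trem2-/- arrays lay marginally above both WT arrays. The lower Trem2-/- control gave that genotype the larger difference from control, 0.83 ± 0.24 against 0.39 ± 0.24 on cuprizone. Ccl12, a rodent MCP, was 11.26 and 11.11 on the WT and Trem2-/- controls and 11.44 to 11.74 on the 8 arrays of fed mice. Its cuprizone difference was 0.41 ± 0.22 in each genotype, and the difference between those responses was 0.00 to 2 decimals, with a 95% interval of -0.72 to 0.71. Neither Ccl2 nor Ccl12 passed in the group model or the blocked fit.

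At 4 weeks Ccl7 and Ccl8 were above control alongside markers of border macrophages, the macrophages of the meninges and perivascular spaces. All 13 listed markers were on the array. Their summed intensity was 2633.4 on the WT control and 2036.3 on the Trem2-/- control, 4867.6 to 5502.4 on the 4-week arrays and 2306.5 to 2574.5 on the 12-week arrays. From 11 to 13 of the 13 exceeded the table median on each array. Against the control of the same genotype, 12 or 13 of the 13 were higher on each 4-week array, with medians of 0.98 and 1.18 in WT and 1.54 and 1.61 in Trem2-/-. At 12 weeks 5 and 3 of the 13 were higher in WT (medians -0.10 on cuprizone and -0.20 in recovery), and 11 and 10 of the 13 in Trem2-/- (medians 0.60 and 0.43). Ms4a7, a marker on this list, was above the WT control by 2.06 and 1.73 at 12 weeks as well. Ccl24, an eosinophil attractant, was 7.60 and 6.91 on the WT and Trem2-/- controls and 8.13 to 8.74 at 4 weeks. At 12 weeks it was below the WT control in WT (7.53 and 7.43) and above the Trem2-/- control in Trem2-/- (by 0.63 and 0.67). Ccl7 at 12 weeks still measured 10.20 to 10.41 against 9.09 and 8.46 on the controls. Ccl8 at 12 weeks was above its own control by 0.20 and 0.64 in WT and by 1.83 and 2.32 in Trem2-/-. What part these cells have in the chemokine values was not tested.

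**Figure D2:**
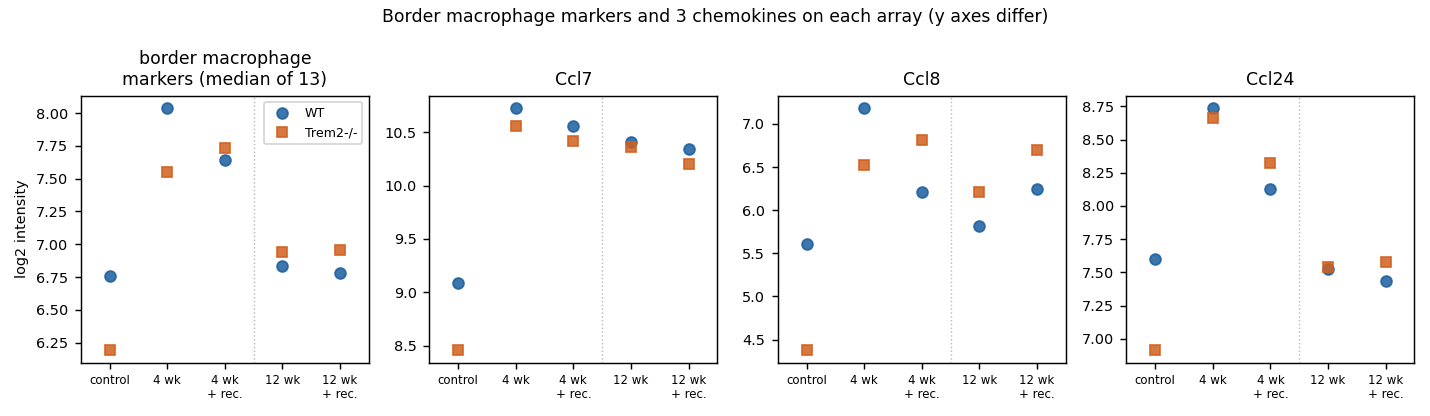
Log2 intensity (y axes, ranges differ) on each array by diet condition (x axis) for the median of the 13 border macrophage markers, Ccl7, Ccl8 and Ccl24. Blue circles are WT and orange squares Trem2-/-, with 1 point per array. The markers and Ccl24 are highest at 4 weeks. At 12 weeks they are near the control in WT and above it in Trem2-/- (marker median 6.94 and 6.96 against 6.19), and Ccl7 is at 10.20 to 10.41 in both.

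Ccl6 and Ccl9, the Ccr1 ligands encoded side by side, had their highest levels in WT mice on cuprizone. Ccl6 was 10.56 and 10.22 on the WT cuprizone arrays (4 and 12 weeks), or 10.39 ± 0.24 (SD, n = 2), and 9.31 on the WT control. On the Trem2-/- cuprizone arrays it was 9.60 and 8.90, or 9.25 ± 0.50 (SD, n = 2), against 9.16 on that control. Ccl6 in recovery was 9.41 and 9.50 in WT and 9.15 and 9.22 in Trem2-/-. The 8 arrays other than WT on cuprizone all lay between 8.90 and 9.60.

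On cuprizone Ccl6 differed between Trem2-/- and WT by -1.14 ± 0.26, or 2.20-fold lower. This missed the threshold in the group model (adjusted p = 0.218), where 0.334% of genes passed. In the blocked fit Ccl6 was lower in Trem2-/- by the same amount (SE 0.21, adjusted p = 0.0283), the 1 chemokine of the 10 to pass, where 1.42% of genes passed. Without the array of conflicting labels the difference was -0.78 ± 0.24 (adjusted p = 1), and with that array as 4 weeks it was -1.16 ± 0.26 (adjusted p = 0.145). The cuprizone response of Ccl6 was 1.08 ± 0.31 in WT (adjusted p = 0.699) and 0.10 ± 0.31 in Trem2-/- (adjusted p = 0.999). The difference between these responses was -0.99 ± 0.44, with a 95% interval of -1.999 to 0.03 and an adjusted p of 1. In the blocked fit the interval was -1.79 to -0.18 and the adjusted p 0.887, where 0.0834% of genes passed.

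Ccl9 had the same order at a smaller size. It was 9.70 and 9.92 on the WT cuprizone arrays against 8.96 on the WT control, and 9.27 and 9.20 on the Trem2-/- cuprizone arrays against 8.75 on that control. In recovery Ccl9 was 9.11 and 9.11 in WT and 9.08 and 9.30 in Trem2-/-. Unlike for Ccl6, the Trem2-/- cuprizone arrays also stood above both controls. Ccl9 on cuprizone was 0.85 ± 0.23 above control in WT (adjusted p = 0.562) and 0.48 ± 0.23 in Trem2-/- (adjusted p = 0.999). The genotype difference on cuprizone was -0.58 ± 0.18 (adjusted p = 0.72, and 0.158 in the blocked fit), and -0.54 ± 0.24 without the array of conflicting labels (adjusted p = 1). The responses differed by -0.37 ± 0.32, with a 95% interval of -1.10 to 0.37.

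Markers of other cells, and of microglia, varied beside Ccl6 and Ccl9. The microglia marker sum was 27874.0 on the WT control and 22027.6 and 18955.4 on the WT cuprizone arrays (4 and 12 weeks). In Trem2-/- it was 26440.8 on the control and 26865.1 and 22349.6 on cuprizone. All 9 microglia markers were below control on both WT cuprizone arrays, against 5 and 8 of 9 in Trem2-/-.

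For monocyte markers the summed intensity of the 9 on the array (of 12 listed, 7 tested) was 736.3 and 440.3 on the WT cuprizone arrays (4 and 12 weeks) and 436.6 and 246.5 on the Trem2-/- ones. It was 372.6 and 356.8 on the WT and Trem2-/- controls, 534.5 and 307.2 in WT recovery and 326.1 and 231.1 in Trem2-/- recovery. The members did not move as one. Trem2-/- minus WT on cuprizone (4 and 12 weeks) was -1.88 and -1.95 for Fn1 and -1.45 and -1.23 for Cd44. For Ccr2 it was 0.23 and 0.74, with both 12-week levels below the table median (4.34 in WT and 5.08 in Trem2-/-). For Chil3 it was -1.66 and 0.52, with both 12-week levels also below that median (2.69 and 3.22). From 1 to 7 of the 9 exceeded the table median per array. The neutrophil sum of 11 markers peaked on another array, WT recovery after 4 weeks (15202.8). It was 5725.9 to 8309.9 on the other first-run arrays and 786.3 to 939.5 on the 12-week arrays. None of these genotype differences in sums has a test, and the part of these cells in Ccl6 and Ccl9 was not tested.

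**Figure D3:**
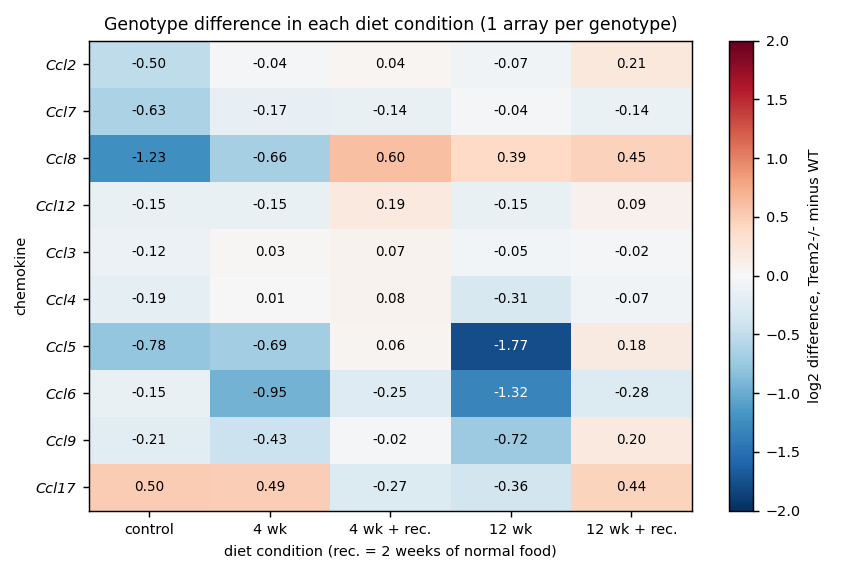
Log2 difference, Trem2-/- minus WT, for each chemokine (rows) in each diet condition (columns), from 1 array per genotype. Blue cells are lower and red cells higher in Trem2-/-, on a scale of -2 to 2. Ccl6 is -0.95 and -1.32 in the cuprizone columns and -0.15 to -0.28 in the others, and Ccl8 runs from -1.23 in the controls to 0.45 in recovery after 12 weeks.

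Ccl5, an attractant of T cells and monocytes, had the widest range of the 10 and was above both controls on every cuprizone array. It was 7.40 on the WT control and 6.62 on the Trem2-/- control. On cuprizone Ccl5 was 9.29 and 10.57 in WT (4 and 12 weeks) and 8.60 and 8.80 in Trem2-/-. In recovery after 4 weeks it was 7.26 in WT and 7.33 in Trem2-/-, which differ from their own controls by -0.13 and 0.71. In recovery after 12 weeks it was 9.57 in WT and 9.75 in Trem2-/-, within the 8.60 to 10.57 seen on cuprizone. The genotypes thus differed little in recovery at either feeding time (0.06 and 0.18), and on cuprizone the Trem2-/- array was lower at both.

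Ccl5 rose with the longer feeding time, by 1.55 ± 0.31 over the 8 arrays of fed mice (2.93-fold, adjusted p = 0.00885). It was the 1 chemokine of 10 to pass, where 20.3% of all genes passed and 8.22% passed as higher at 12 weeks. Leaving out each array in turn gave 1.26 to 2.00, and the value without the array of conflicting labels was 2.00 ± 0.22. Leaving out either array of a group gives the same fit, because its partner then carries no information on feeding time. Since the feeding times are also the runs, this difference cannot be assigned to either. On cuprizone Ccl5 differed from control by 2.54 ± 1.10 in WT and 2.08 ± 1.10 in Trem2-/- (adjusted p = 0.998 and 0.999). Its SE in the group model holds the gap between feeding times. In the blocked fit the cuprizone differences were 1.76 ± 0.56 and 1.31 ± 0.56 (adjusted p = 0.316 and 1). The responses differed between genotypes by -0.46 ± 1.56, with a 95% interval of -4.03 to 3.12, too wide to tell like from unlike. On cuprizone Trem2-/- minus WT was -1.23 ± 0.90 (adjusted p = 1), and -0.23 ± 0.29 with the array of conflicting labels as 4 weeks in the blocked fit.

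T and NK cells are a well-known source of Ccl5. Of 13 listed markers 11 were on the array and 2 were tested, and 0 to 2 exceeded the table median on each array. Their summed intensity was 230.8 and 198.5 on the WT and Trem2-/- controls, 270.1 and 270.3 on the 4-week cuprizone arrays and 229.9 and 184.2 in recovery after 4 weeks. Within the first run it was thus highest where Ccl5 was (9.29 and 8.60), but the 2 tested markers went opposite ways. Nkg7, a marker of cytotoxic cells, was 6.03 and 5.75 there against 5.46 and 4.70 on the WT and Trem2-/- controls. Cd3e was 5.45 and 5.64 there against 5.77 and 5.67 on the controls. On the 12-week arrays the sum was 180.3 to 204.7, with Ccl5 at 8.80 to 10.57. The part of these cells in the Ccl5 values was not tested. Cxcl10, an interferon-induced CXC chemokine, was higher at 12 than at 4 weeks by 2.07 ± 0.14 (adjusted p = 8.73e-05), and by 2.16 ± 0.16 without the array of conflicting labels (adjusted p = 0.000848, and 0.0404 with it as 4 weeks). Of the interferon response list (18 genes, 14 tested), 2 rose at 12 weeks, Cxcl10 and Ifit1, where 8.22% of all genes tested rose. Ifit1 encodes an RNA-binding antiviral protein. It was 5.30 to 7.12 at 12 weeks, 5.44 on the WT 4-week cuprizone array and 4.19 to 4.77 on the other first-run arrays. Ifit1 thus entered the tests mainly through the arrays where it was high, so its rise is a description only. The list's median difference was 0.05 against -0.04 over all genes tested. On cuprizone 11 of its 14 were above control in WT with a median of 1.22, and 10 of 14 in Trem2-/- with a median of 0.13. None of the 14 passed in either genotype, where 0.148% of genes passed in WT and 0% in Trem2-/-.

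The NF-kB pathway drives many chemokine genes. Of 18 listed genes 16 were tested, and 11 rose at 12 weeks with a median difference of 0.56: Nfkb2, Rela, Relb, Rel, Nfkbib, Tnfaip3, Bcl3, Traf6, Myd88, Tnf and Il1b. None fell. Over all genes tested 8.22% rose at 12 weeks and the median was -0.04, and here too feeding time cannot be told apart from run. The count was 9 without the array of conflicting labels and 1 with it as 4 weeks. On cuprizone 15 of 16 lay above control in WT (median 0.20) and 9 of 16 in Trem2-/- (median 0.04), from groups that each hold a 12-week array of the other run. On the 4-week cuprizone arrays, in the same run as the controls, 5 of 16 lay above control in WT (median -0.06) and 2 of 16 in Trem2-/- (median -0.20). At 12 weeks 14 and 12 of 16 did. None of the 16 passed on cuprizone in the group model, where 0.148% of genes passed in WT and 0% in Trem2-/-. Il1b rose on cuprizone in WT in the blocked fit, by 1.60 ± 0.20 (adjusted p = 0.00587, and 0.0537 with the array of conflicting labels as 4 weeks). In that fit it was lower in Trem2-/- than in WT on cuprizone, a difference of -1.56 ± 0.16 (adjusted p = 0.000969, and 0.0488 with that array as 4 weeks).

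Of the macrophage inflammatory proteins Ccl3 and Ccl4, Ccl3 ranged over 0.22 log2 units across the 10 arrays and Ccl4 over 0.66. Ccl3 was 12.93 to 13.15 on the 10 arrays, where the brightest probe of each array measured 13.39 to 13.61. Its largest difference from control was 0.20 ± 0.21, in Trem2-/- recovery, within its SE like the other 3 control comparisons. Near the top of the array's range a difference can be compressed, which was not tested. Ccl4 was 12.46 on the WT control and 12.27 on the Trem2-/- control, 12.44 to 12.63 on the 4-week arrays and 12.62 to 12.93 on the 12-week arrays. The cuprizone difference of Ccl4 was 0.32 ± 0.27 in WT and 0.35 ± 0.27 in Trem2-/-. The 95% interval of the difference between these responses ran from -0.83 to 0.90, and neither gene passed in any comparison of the group model.

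Ccl17 entered the tests only through its controls, 5.35 in WT and 5.86 in Trem2-/-, and all 8 fed arrays lay below the table median at 4.24 to 5.05. A gene that passes in this way has to be lower on the fed arrays, so its order (all fed arrays under both controls, as in 2.77% of genes tested) and its differences are a description only. The difference from control on cuprizone was -0.75 ± 0.35 in WT and -1.19 ± 0.35 in Trem2-/- (adjusted p = 0.998 and 0.999). Of 12 dendritic cell markers on the array 5 were tested, and 2 to 5 exceeded the table median per array. Their summed intensity was 462.0 and 401.4 on the WT and Trem2-/- controls, 372.6 to 497.1 at 4 weeks and 321.4 to 345.7 at 12 weeks. The sums were 124.7 to 238.3 for 4 B cell markers and 196.4 to 253.8 for 7 endothelial markers. For 8 astrocyte markers the sum was 582.4 and 592.4 on the WT and Trem2-/- controls, 415.3 to 634.3 at 4 weeks and 347.5 to 393.9 at 12 weeks, with Aldoc at 7.14 and 7.20 on the controls and 5.13 to 5.71 at 12 weeks. What these cells add to Ccl17 was not tested.

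**Figure D4:**
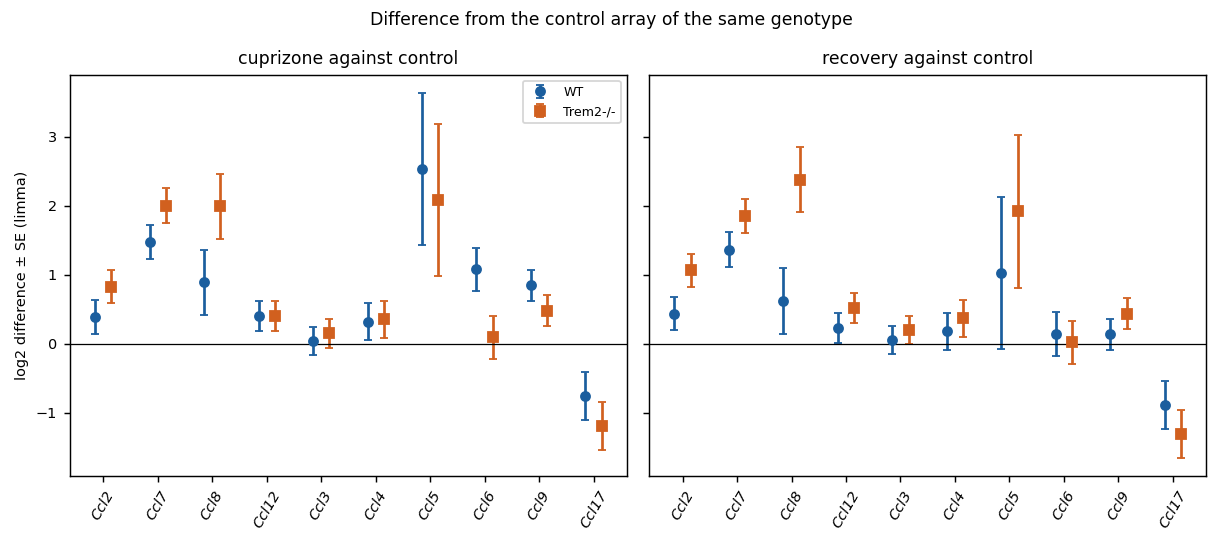
Log2 difference from the control array of the same genotype (y axis, ± SE from limma) for each chemokine (x axis), on cuprizone (left) and in recovery (right). Blue circles are WT and orange squares Trem2-/-. On cuprizone Ccl6 is 1.08 in WT and 0.10 in Trem2-/-, Ccl7 is 1.48 and 2.00, and in recovery Ccl7 stays at 1.36 and 1.85 while Ccl6 is 0.14 and 0.03.

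Set side by side, 9 of the 10 chemokines lay above control on cuprizone in WT with a median difference of 0.63, and 9 of 10 in Trem2-/- with a median of 0.44. The medians over all genes tested were 0.01 in each, with 51.3% and 51.4% of genes above control. None of the 10 passed in either genotype in the group model, and in the blocked fit Ccl7 passed in both. In the group model these comparisons share no arrays, but they share the estimate of the spread and each rests on a single control. The blocked fit also gives both the same feeding-time term, fitted over the fed arrays of both genotypes. The passes of Ccl7 are therefore not independent. The Trem2-/- response minus the WT response was below 0 for Ccl5, Ccl6, Ccl9 and Ccl17, above 0 for Ccl2, Ccl3, Ccl4, Ccl7 and Ccl8, and 0 to 2 decimals for Ccl12. The sign of this difference turned for Ccl4, Ccl5 and Ccl12 under other settings. None of the 10 genotype differences in the response passed (0 at an unadjusted p under 0.05 in the group model, adjusted p = 1 for each), where 0.00927% of genes passed. Ccl6 came nearest, and Ccl8 had the largest value of the other sign, 1.10 ± 0.67 with an interval of -0.44 to 2.63. A dependence of induction on Trem2 was therefore not established for any of the 10, and the intervals leave room for sizeable differences in Ccl5, Ccl6 and Ccl8.

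The control arrays themselves differed, and each response is measured from them. Trem2-/- minus WT on the controls was -1.23 for Ccl8, -0.78 for Ccl5, -0.63 for Ccl7 and -0.50 for Ccl2, and 0.50 for Ccl17. The other 5 differed by -0.12 to -0.21. With 1 array each these have no test. Over the 5 diet conditions, Trem2-/- was lower in 5 of 5 for Ccl6 (-0.59 ± 0.17, adjusted p = 0.23) and Ccl7 (-0.23 ± 0.11, adjusted p = 0.479), a pattern held by 6.1% of genes tested. Ccl5 was lower in 3 of 5 (-0.60 ± 0.24, adjusted p = 0.404) and Ccl9 in 4 of 5 (-0.24 ± 0.13, adjusted p = 0.562). None of the 10 passed in this model, where 0.259% of genes passed.

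After return to normal food, Ccl7 was above control in both genotypes and Ccl8 in Trem2-/-, each in the blocked fit. In WT recovery the differences from control were 0.44 ± 0.24 for Ccl2, 0.23 ± 0.22 for Ccl12, 0.14 ± 0.31 for Ccl6 and 0.14 ± 0.23 for Ccl9, and none of these passed. Ccl7 in recovery was 1.36 ± 0.25 above control in WT and 1.85 ± 0.25 in Trem2-/- (adjusted p = 0.557 and 0.352). In the blocked fit it was raised by 1.48 ± 0.19 (adjusted p = 0.0422) and 1.97 ± 0.19 (adjusted p = 0.0155), where 0.176% of genes passed in WT and 0.176% in Trem2-/-. Ccl8 in Trem2-/- recovery was 2.38 ± 0.47 above control, and 2.60 ± 0.37 in the blocked fit (adjusted p = 0.0421). With the array of conflicting labels as 4 weeks, the adjusted p was 0.166 for Ccl7 in WT, 0.0436 for Ccl7 in Trem2-/- and 0.315 for Ccl8. Ccl2 in Trem2-/- recovery was 1.06 ± 0.24 above control, with an adjusted p of 0.0769 in the blocked fit. The group model called 0 of 10 in recovery against control in either genotype, and 0% of genes in each.

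Recovery was also set against cuprizone within each genotype. In WT, Ccl5 differed by -1.51 ± 0.90, Ccl6 by -0.94 ± 0.26 and Ccl9 by -0.70 ± 0.18 (adjusted p = 0.999 for each), and the other 7 by less than their SE. The lower recovery level was seen at both feeding times for Ccl6 (9.41 after 10.56 and 9.50 after 10.22) and Ccl9 (9.11 after 9.70 and 9.11 after 9.92). In Trem2-/- none of the 10 differed by 2 SE, and Ccl6 differed by -0.07 ± 0.26. None of the 10 passed in either genotype, where 0% of genes passed in each. Between genotypes in recovery, Ccl8 was 0.53 ± 0.39 and Ccl6 -0.27 ± 0.26 in Trem2-/- minus WT, the other 8 lay within 1 SE, and 0.0278% of genes passed. The recovery response of Ccl8 differed between genotypes by 1.76 ± 0.67 (95% interval 0.22 to 3.30, adjusted p = 1), where 0% of genes passed, and it starts from a Trem2-/- control below the table median.

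By feeding time, the MCP-type genes went the other way from Ccl5 without passing. Ccl7 was lower on all 4 of the 12-week arrays than on all 4 of the 4-week arrays, a pattern held by 14.1% of genes tested, and differed by -0.24 ± 0.10 (adjusted p = 0.132). Ccl8 differed by -0.44 ± 0.21 (adjusted p = 0.151), Ccl2 by -0.19 ± 0.11 and Ccl12 by -0.13 ± 0.10. Ccl4 differed by 0.24 ± 0.11 (adjusted p = 0.157). The median over the 10 chemokines was -0.16, with 4 of 10 higher at 12 weeks, against -0.04 over all genes tested.

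Of 14 other CC ligands listed, 9 were on the array and 4 were tested: Ccl19, Ccl22, Ccl24 and Ccl25. Ccl24 fell at 12 against 4 weeks by 0.94 ± 0.13 on the log2 scale (adjusted p = 0.00159), where 20.3% of genes passed in either direction. Without the array of conflicting labels it fell by 0.88. With that array as 4 weeks the adjusted p was 0.0907. Ccl24 also rose in Trem2-/- on cuprizone in the blocked fit, by 1.66 ± 0.23 (adjusted p = 0.0403), and with that array as 4 weeks the difference was 1.19 ± 0.40 (adjusted p = 0.999). Ccl22, a second Ccr4 ligand, exceeded the table median on the Trem2-/- control (5.38) and the WT 12-week cuprizone array (5.94) only. Of 15 receptors listed, 14 were on the array and 6 were tested: Ccr1, Ccr2, Ccr3, Ccr7, Ccr10 and Ccrl2. Ccr1, the receptor of Ccl6 and Ccl9, was 5.13 and 5.05 on the WT and Trem2-/- controls, near background. On the fed arrays it was 5.04 to 5.40 in WT and 5.59 to 6.12 in Trem2-/-. Its genotype difference was 0.55 ± 0.22 on cuprizone and 0.71 ± 0.22 in recovery (adjusted p = 1 for each), and 0.28 ± 0.24 on cuprizone without the array of conflicting labels, opposite in sign to that of Ccl6. Ccr2, the receptor of Ccl2, Ccl7 and Ccl12, differed by -0.96 ± 0.19 at 12 against 4 weeks (adjusted p = 0.00871). The difference was -0.90 without the array of conflicting labels, and the adjusted p was 0.122 with it as 4 weeks. Ccr2, itself a monocyte marker, was 4.34 to 5.43 at 12 weeks and 5.39 to 6.23 in the first run. It entered the tests mainly through the arrays where it was high, so this fall is a description only.

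For the 3 chemokines whose level ranged over more than 2 log2 units, the genes with the nearest profile over the 10 arrays were found after subtracting each gene's mean within a run. Nearness is the root-mean-square distance of the centred log2 profiles, and all genes share the arrays. Nearest to Ccl5 were Ifi27l2a (0.27), Prg2 (0.34) and Lgals1 (0.37), where the median gene lay at 0.82. Nearest to Ccl7 were Clec4n (0.18), Cd36 (0.19) and Cbr2 (0.20), with a median of 0.69. Nearest to Ccl8 were Cbr2 (0.29), F13a1 (0.29) and Cd209f (0.30), with a median of 0.75. Cbr2, F13a1 and Cd209f are on the border macrophage list. Subtracting the run means removes differences between the runs from this distance. In WT at 12 weeks Cbr2 differed from control by -0.10 and -0.03, and Ccl7 by 1.32 and 1.26. In Trem2-/- at 12 weeks Cbr2 differed from its control by 0.80 and 1.03, and Ccl7 by 1.91 and 1.75.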

How the data were processed

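Microglia of 10 samples were profiled on 1-colour microarrays from 2 ng of total RNA each, per the labels' protocols. The deposited values are linear intensity, 1 per probe and array, and how they were background-corrected and normalized is not given in the sources used. Log2 was taken with no further scaling. Of 24567 probes, 21259 named 1 gene, 1274 several and 2034 none in the platform's annotation. The brightest single-gene probe was kept per gene, and genes above the table median on at least 2 arrays were tested (10792). The number of arrays limits the precision.

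Linear models were fitted by limma 3.58.1 under R 4.3.3, with lmFit, eBayes and Benjamini-Hochberg adjustment over all genes tested, on 6 groups of genotype and diet, on genotype with the 5 diet conditions as a block, and on 12 against 4 weeks with group as a block. The fits were tested on simulated data. All adjusted p-values come from limma. Alternatives were the feeding time as a block, array scaling, a pseudocount of 32, other filters, the mean over probes and leaving out each array. Samples were grouped by title.

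The members, gene lists (other CC ligands, CC receptors, NF-kB pathway, interferon response and markers of 9 cell types) and tests were chosen with earlier results of these data known. All 10 chemokines are named. Of other lists, genes that passed and at most 3 with the largest differences may be named, and Ccl24 and Ccr1 were singled out after their values were seen. Sequences and gene order come from RefSeq (GRCm38.p6).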

Additional observations from a re-analysis of the deposited data

How the results depend on the processing

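Each chemokine value of at least 1 SE, and all 10 genotype differences in the cuprizone response, 67 values in all, were recomputed 1107 times. Leaving out an array kept direction and side of the threshold in 594 recomputations and turned the sign in 4. Other settings kept both in 497, brought 9 past the threshold and turned the sign in 3. Of the 67 values only Ccl5 at 12 against 4 weeks passed in the main fits. The rest kept their side of the threshold by not passing, so these counts say little about robustness. The mean over probes cannot change the difference of a chemokine, since each has 1 single-gene probe.

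The count of chemokines that passed was 0 in each comparison with control and in Trem2-/- against WT on cuprizone. With the feeding time as a block it was 1 (Ccl7) for cuprizone against control in WT and 1 (Ccl7) in Trem2-/-, 1 (Ccl6) for Trem2-/- against WT on cuprizone, 1 (Ccl7) for recovery against control in WT and 2 (Ccl7 and Ccl8) in Trem2-/-. With the array of conflicting labels as 4 weeks in that block, it was 1 (Ccl7) for WT cuprizone and 1 (Ccl7) for Trem2-/- recovery, and 0 in the others. At 12 against 4 weeks the count was 1 (Ccl5), and 2 (Ccl4 and Ccl5) after quantile normalization. Signs turned for the genotype difference in the cuprizone response of Ccl5 (0.55 with the array of conflicting labels as 4 weeks in the block, and -1.09 to 0.18 leaving out an array), Ccl12 (0.095 after quantile normalization, and -0.075 to 0.074 leaving out an array) and Ccl4 (-0.12 to 0.19 leaving out an array). The sign also turned for Ccl12 at 12 against 4 weeks (0.0046 after quantile normalization). The cause was not tested. Over all genes, the block moved the count that passed from 16 to 105 for WT cuprizone against control and from 36 to 153 for Trem2-/- against WT on cuprizone. Ccl8 and Ccl17 lie near background, which limits both, and Ccl3 lies near the top of the array's range.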
